A study of Homo sapiens with 6 samples.

Results

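A pair of control short hairpin RNAs, given by the labels as SHC007 (control hairpin 1) and SHC016 (control hairpin 2) from one supplier, was compared in SH-SY5Y cells. SH-SY5Y is a human neuroblastoma line with features of sympathetic nerve cells. The comparison took the 4 control libraries of the 6 in the series, 2 with each control hairpin, and every gene and repeat subfamily counted in them. The other libraries carried a hairpin against TARDBP (TRCN0000016038), the gene of the RNA-binding protein TDP-43, and were left out of the comparison. Every group was exposed to lentivirus with polybrene at 8 µg/mL and kept in puromycin at 2 µg/mL for 3 days, starting 48 hours after infection. The control cells therefore shared the vector delivery and the drug selection, and differed by label in the hairpin. No uninfected library was used here, so the values do not say which control stood nearer to untreated cells. Whether the replicate libraries were grown apart is not stated in the labels, so the p-values rest on a spread that may be purely technical.

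A short hairpin RNA is transcribed in the cell, cut to a short duplex by the enzyme DICER1 and loaded into an Argonaute protein, which then silences RNAs that pair with the guide strand. A control hairpin is meant to occupy this machinery without a cellular target, and a change seen against such a control is read as the effect of the targeting hairpin. The question addressed by the comparison is how far a pair of controls differed from each other. Neuroblastoma lines hold a noradrenergic state, marked by catecholamine enzymes and the factors HAND2 and GATA3, and a mesenchymal state rich in matrix and contractile genes.

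Library totals ran from 18605745 to 21698339 counts over genes and repeats together. Of 27961 genes and 992 repeat subfamilies, 15680 genes and 956 subfamilies had enough counts to be tested. Pearson's r of log2 CPM (counts divided by library size, scaled by edgeR's TMM factors) across these features was 0.990 within control hairpin 1 and 0.991 within control hairpin 2. Between the hairpins r ran from 0.927 to 0.954, over features that are not independent. The 10 features with the most counts held 14.7 to 19.3% of each library. TARDBP, which neither control is labelled as targeting, stood at 82.2 and 73.0 CPM with control hairpin 1 and at 94.4 and 82.3 CPM with control hairpin 2 (log2 fold change 0.19, SE 0.112, adjusted p = 0.208). Its libraries did not overlap between the hairpins, but the difference did not pass the test. All log2 fold changes below are control hairpin 2 over control hairpin 1, and higher or lower means called with control hairpin 2 at an adjusted p below 0.05 in edgeR's quasi-likelihood test.

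The controls differed in 7338 of 16636 features tested, or 44.1%. Among genes 3922 were higher (25%) and 3125 lower (19.9%), and both directions together made up 44.9% of genes. The lower count was 2040 without control hairpin 1 replicate 1 and 2063 without control hairpin 2 replicate 2. Those called and at least 2-fold apart numbered 1617 higher (10.3%) and 724 lower (4.62%). The median log2 fold change was 0.03 over all genes tested. The libraries of control hairpin 2 both lay above both of control hairpin 1 for 39.6% of genes and below for 35.7%. A list of genes is read below against these shares. Where a list or repeat family had no called member in a direction, 0 or 1 passed an unadjusted p of 0.05 in that direction and DESeq2 called none.

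The largest rises among genes of at least moderate level were led by CTGF and ANKRD1. CTGF, a secreted matrix-associated protein and a standard target of the YAP and TEAD transcription factors, was at 0.673 and 1.53 CPM with control hairpin 1 and at 98.0 and 73.7 CPM with control hairpin 2. Its fold was 76.9 (log2 6.26, SE 0.284, adjusted p = 5.02e-05), from 13 and 31 counts to 1828 and 1550. ANKRD1, a muscle ankyrin repeat protein that responds to the same factors, was at 6.21 and 15 CPM against 305 and 277 CPM (log2 4.77, SE 0.334). In both genes the lowest library of control hairpin 2 stood far above the highest of control hairpin 1.

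PTX3, a secreted pattern recognition protein, went from 0.932 and 3.56 CPM to 46.1 and 58.6 CPM (log2 4.53). ANOS1, a secreted protein of the olfactory and gonadotropin neuron path, was at 1.50 and 1.63 CPM against 34.8 and 35.4 CPM (log2 4.48, SE 0.154), with the libraries of each hairpin almost equal. The imprinted gene MEST was at 1.76 and 5.78 CPM against 65.6 and 97.1 CPM. TGM2, a crosslinking transglutaminase, was at 4.45 and 13.4 CPM against 109 and 186 CPM. ADAM9, a membrane metalloprotease, was at 11.1 and 10.8 CPM against 155 and 137 CPM (log2 3.74, SE 0.118). The other genes of the 12 largest rises were HIST2H3A, ACTG2, NIPAL4, ITGB3 and ADAMTS12, with log2 fold changes of 3.55 to 4.0. HIST2H3A has near-identical copies, so its count may hold reads of its paralogs.

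The largest falls among genes of at least moderate level were smaller. EYS, a large secreted protein known from the retina, was at 32.6 and 39.9 CPM with control hairpin 1 and at 2.15 and 3.28 CPM with control hairpin 2 (log2 -3.73, SE 0.209, adjusted p = 6.76e-05). FAM30A was at 40.4 and 36.2 CPM against 3.43 and 2.95 CPM (log2 -3.59). INPP5D, an inositol phosphatase known from blood cells, was at 30.3 and 30.8 CPM against 3.59 and 4.47 CPM (log2 -2.92, SE 0.152). SERINC5, a membrane protein, was at 79.9 and 59.6 CPM against 9.49 and 9.47 CPM (log2 -2.88).

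A block of imprinted genes lay among these falls. The growth factor gene IGF2 was at 92.9 and 111 CPM against 7.78 and 18.3 CPM (log2 -2.96, SE 0.321). H19, the noncoding RNA next to it, was at 1441 and 1798 CPM against 144 and 322 CPM (log2 -2.80, SE 0.336, adjusted p = 0.0007). INS-IGF2 (-2.88) and HOTS (-2.30) overlap IGF2 and H19, and their counts cannot be told apart from those genes here. DNAH7, FAM160A1, NECTIN4 and PTPRH completed the 12 largest falls, with log2 fold changes of -2.64 to -2.40.

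**Figure D1:**
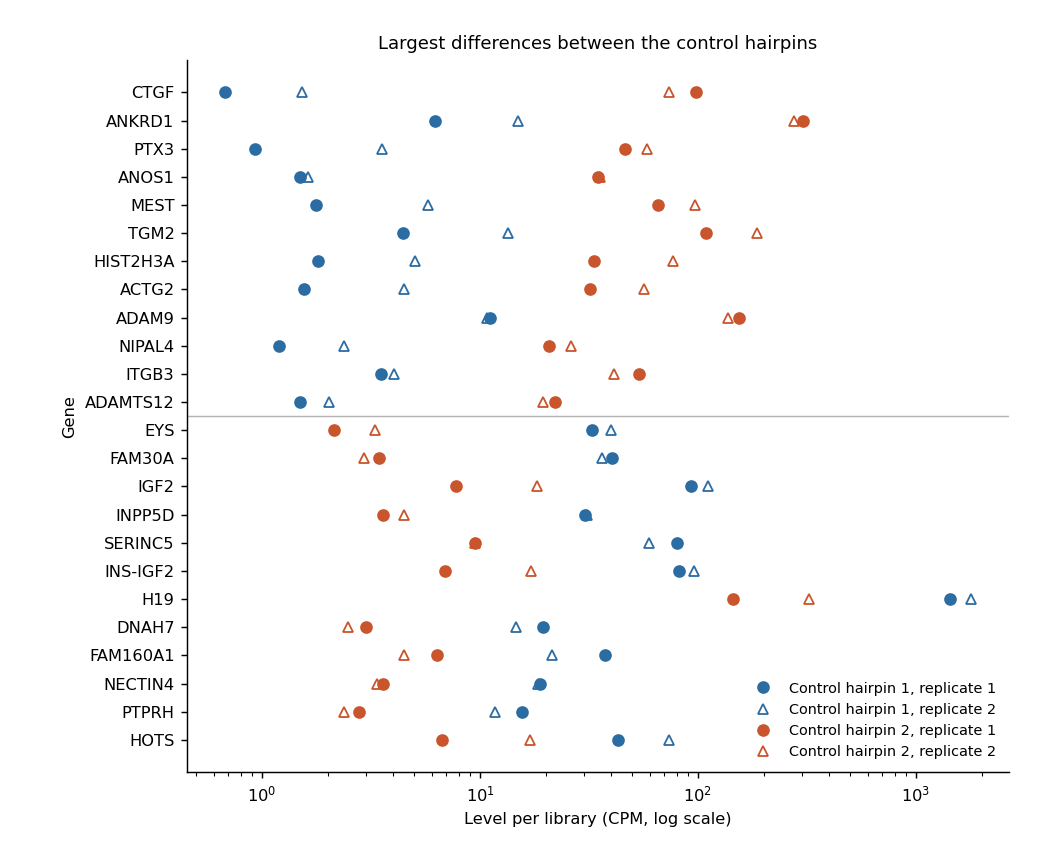
Level in CPM (log axis) of the 12 largest rises (upper block) and the 12 largest falls (lower block) in each of the 4 control libraries. All were called genes of at least moderate level. Each symbol is 1 library, blue for control hairpin 1 and orange for control hairpin 2, and CTGF spans 0.673 to 98.0 CPM while no gene shown has overlapping hairpins.

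The promoters of CTGF and ANKRD1 are shown because both are known TEAD targets. These genes also led the rises among genes of at least moderate level. The TEAD motif searched was CATTCC, on both strands, in the 250 bases before each gene's start in RefSeq. It was present in 11.9% of all 27305 RefSeq promoters of this length. The letters in capitals are matches to CATTCC or to its reverse complement GGAATG. CTGF (RefSeq symbol CCN2, GRCh38.p14, chr6:131951373-131951622, minus strand) held 3 matches, the nearest 95 bases before the start. ANKRD1 (GRCh38.p14, chr10:90921088-90921337, minus strand) held 2, the nearest 128 bases before the start.
CTGF: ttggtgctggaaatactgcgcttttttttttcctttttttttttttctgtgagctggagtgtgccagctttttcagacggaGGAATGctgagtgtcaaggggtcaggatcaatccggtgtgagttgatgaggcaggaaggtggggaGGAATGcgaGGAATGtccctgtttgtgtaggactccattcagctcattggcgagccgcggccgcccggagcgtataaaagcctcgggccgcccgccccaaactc
ANKRD1: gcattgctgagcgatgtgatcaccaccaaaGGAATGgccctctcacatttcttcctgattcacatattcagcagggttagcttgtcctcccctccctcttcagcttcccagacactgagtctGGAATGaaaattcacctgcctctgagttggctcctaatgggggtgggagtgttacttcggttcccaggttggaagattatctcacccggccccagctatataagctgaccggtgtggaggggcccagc

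The list of YAP and TEAD targets, CTGF and ANKRD1 included, had 26 tested members, of which 17 were higher and 4 lower, with a median log2 fold change of 1.08. CRIM1, a membrane protein with growth factor binding repeats, was at 36.3 and 39.0 CPM against 237 and 225 CPM (log2 2.61, SE 0.101). CYR61, the matrix-associated relative of CTGF, was at 9.16 and 15.2 CPM against 113 and 117 CPM (log2 3.24). PTPN14, a phosphatase that binds YAP, rose by 2.23 and FJX1 by 2.88. YAP1 itself was at 14.4 and 13.5 CPM against 32.3 and 27.9 CPM (log2 1.10, SE 0.129). The lower members were TEAD3 (-1.0), IGFBP3 (-0.85), GLS2 (-1.43) and AMOTL1 (-0.47), and AMOTL1 was not called without control hairpin 1 replicate 1 or without control hairpin 2 replicate 2 (adjusted p = 0.0928 and 0.0572). This list was chosen with earlier results of these data in view, so its count is a description.

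Genes of cell division were higher with control hairpin 2 without exception among those tested. All 63 mitosis genes were called higher, 60 of them at least 2-fold, and the median log2 fold change was 2.01, with single genes from 0.53 to 3.10. Their summed level was 579 and 836 CPM with control hairpin 1 and 2490.0 and 2597 CPM with control hairpin 2. TTK, a kinase of the spindle checkpoint, was at 4.14 and 4.84 CPM against 18.5 and 20.5 CPM (log2 2.12, SE 0.156, adjusted p = 0.00011). CCNA2, the cyclin of S phase and mitotic entry, was at 6.37 and 8.75 CPM against 32.4 and 37.3 CPM (log2 2.20). The checkpoint protein BUB3 was at 29.8 and 30.3 CPM against 75.7 and 73.2 CPM (log2 1.31). ECT2, which drives the contractile ring at division, was at 21.8 and 26.4 CPM against 81.1 and 73.4 CPM (log2 1.68). All 63 genes kept the call in each alternative except the test against a 1.5-fold change, which called 60, and medians ran from 1.66 to 2.31. In bulk RNA, a larger share of dividing cells and more RNA per dividing cell cannot be told apart.

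The promoters of ECT2 and KIF11 are shown as examples of an element known from late cell cycle genes. Both were picked from called mitosis genes that hold a match, so finding it in them was fixed in advance. Late cell cycle genes are known to be held down in resting cells through the cell cycle genes homology region (CHR), searched as TTTGAA on both strands, often with an upstream CCAAT box. A CHR match was in 29 of the 55 mitosis promoters found in RefSeq, or 52.7%, against 13.6% of all promoters. The letters CCAAT were in 74.5% of them, against 33.0% of all promoters. Among tested genes the shares were 8.79% for the CHR letters and 34.8% for CCAAT, with promoters found for 11956 of 15680. KIF11, a spindle motor chosen here for its promoter after values were seen, was at 9.58 and 13.6 CPM against 45.5 and 49.3 CPM (log2 2.03, SE 0.170). The match in ECT2 (GRCh38.p14, chr3:172750476-172750725, plus strand) lay 115 bases before the start and that in KIF11 (chr10:92592880-92593129, plus strand) 28 bases before it. In ECT2 the CCAAT letters lie after the match, not upstream of it. In KIF11 their reverse complement ATTGG lies upstream of the match. Capitals mark TTTGAA or its reverse complement TTCAAA.
ECT2: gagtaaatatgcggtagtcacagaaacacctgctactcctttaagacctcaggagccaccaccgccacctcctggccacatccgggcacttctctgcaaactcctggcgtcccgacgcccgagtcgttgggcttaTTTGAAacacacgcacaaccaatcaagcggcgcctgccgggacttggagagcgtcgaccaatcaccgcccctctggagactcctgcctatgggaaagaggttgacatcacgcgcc
KIF11: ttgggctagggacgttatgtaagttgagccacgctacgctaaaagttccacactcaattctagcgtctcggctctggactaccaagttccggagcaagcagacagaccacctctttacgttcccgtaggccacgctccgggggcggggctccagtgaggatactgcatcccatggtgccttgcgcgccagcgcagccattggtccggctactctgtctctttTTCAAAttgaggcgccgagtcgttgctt

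DNA replication genes had a lower median than the mitosis genes. Of 56 tested, 47 were higher and none lower, 28 of them at least 2-fold, with a median of 0.99. Their summed level was 1204 and 1268 CPM against 2216 and 2432 CPM. MCM7, a subunit of the replicative helicase, was at 65.8 and 58.0 CPM against 206 and 217 CPM (log2 1.77, SE 0.105). MCM2 of the same helicase rose by 1.24, the clamp loader subunit RFC3 by 1.55 and UHRF1, which carries DNA methylation through replication, by 1.48. The CHR letters were in 1 of the 49 replication promoters found, or 2.04%, against 13.6% of all promoters and 8.79% of those of tested genes. CCAAT was in 57.1% of them, against 33.0% of all promoters.

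**Figure D2:**
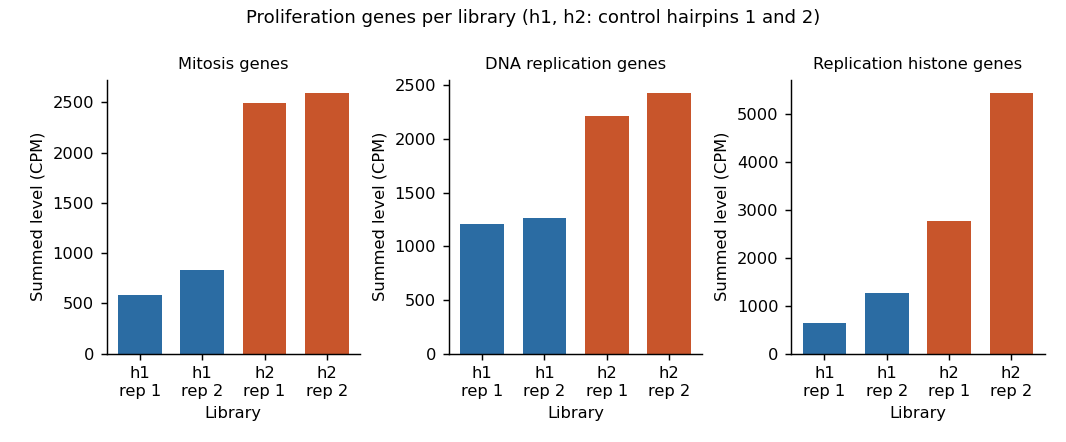
Summed level in CPM of the tested and untested members of the mitosis, DNA replication and replication histone lists, 1 bar per library, with axes from 0. The bars of control hairpin 2 (orange) exceed both bars of control hairpin 1 (blue) in each panel, and the histone sum differs between the replicates of each hairpin as well, from 639 to 1253 CPM and from 2756 to 5435 CPM.

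Histone genes of replication had a median of 2.43, the highest of the lists with all 4 libraries. It was 1.85 without control hairpin 2 replicate 2, below the mitosis median of 1.97 in that setting, and 3.15 without control hairpin 1 replicate 2. Of 62 tested, 60 were higher and none lower, and 1 was lower without control hairpin 2 replicate 1. HIST1H2BE was at 4.25 and 8.70 CPM against 38.5 and 76.1 CPM (log2 3.14, SE 0.390), and HIST1H4D at 6.52 and 13.8 CPM against 59.4 and 117 CPM (log2 3.12, SE 0.394). HIST1H4I rose by 2.89. Replicate 2 exceeded replicate 1 with both hairpins, at summed levels of 639 and 1253 CPM against 2756 and 5435 CPM, but the hairpins did not overlap. Histone genes are near-identical copies, and how reads with several matches were counted is not known here.

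A histone promoter is shown for its TATA box. TATAAA, the core of the TATA box, was in 33 of the 52 histone promoters found, or 63.5%, against 11.1% of all promoters and 5.45% of mitosis promoters. Among tested genes the share was 5.57%, near that of mitosis promoters, with promoters found for 11956 of 15680. CCAAT was in 82.7% and the CHR letters in 36.5% of histone promoters. In HIST1H4D (RefSeq symbol H4C4, GRCh38.p14, chr6:26189113-26189362, minus strand) the TATAAA match, in capitals, lay 29 bases before the start, and the stretch also holds TTCAAA, left in lower case.
HIST1H4D: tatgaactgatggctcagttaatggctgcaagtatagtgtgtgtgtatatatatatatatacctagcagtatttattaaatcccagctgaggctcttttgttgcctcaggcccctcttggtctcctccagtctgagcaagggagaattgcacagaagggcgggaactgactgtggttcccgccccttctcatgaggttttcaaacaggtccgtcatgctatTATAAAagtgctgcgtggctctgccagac

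Cell cycle regulators went in both directions. Among 37 tested, 20 were higher and 7 lower (median 0.63). FOXM1, the factor that drives mitotic genes, was at 8.85 and 12.8 CPM against 46.2 and 63.1 CPM (log2 2.33, SE 0.212), and MYBL2, its partner, at 14.3 and 22.0 CPM against 64.5 and 89.8 CPM (log2 2.09). The phosphatase CDC25A rose by 1.32 and SKP2, which marks cell cycle inhibitors for decay, by 1.00. Inhibitors of the cycle were among the lower genes, with CDKN1C at -1.22 and RB1 at -0.60. TFDP2 (-0.76) and LIN52 (-0.90) were also lower.

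Repair by recombination followed the replication genes, with 22 of 34 higher and 1 lower (median 0.75). EXO1 rose by 1.46, FANCD2 by 1.60, BRCA2 by 1.26 and FANCA by 1.24. The lower gene, RAD50 (-0.39), was not called without control hairpin 1 replicate 1 or without control hairpin 2 replicate 2 (adjusted p = 0.139 and 0.219).

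Targets of p53 did not share a direction. Of 28 tested, 4 were higher, 8 lower and 16 not called (median -0.07). The lower count was 4 without control hairpin 1 replicate 2. TP53INP1, a stress-induced cofactor of p53, was at 240.2 and 228 CPM against 81.8 and 65.7 CPM (log2 -1.67, SE 0.124). CCNG1 (0.99) and PMAIP1 (1.01) were higher. In the BCL2 family, 4 of 14 were higher and 3 lower, among them the death activators BID (1.04) and BMF (-2.09). The higher count was 2 without control hairpin 1 replicate 1 and without control hairpin 2 replicate 2.

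MYC, the growth regulator, was at 2.17 and 4.20 CPM against 31.3 and 34.9 CPM (log2 3.37, SE 0.246, adjusted p = 0.000105). Of its network 7 of 15 were higher and 4 lower. ODC1, a polyamine enzyme and known MYC target, was at 60.4 and 67.7 CPM against 239.7 and 279 CPM (log2 2.02), and LIN28B, which blocks let-7 maturation, rose by 1.43. The antagonists MNT (-0.78), MXD4 (-0.79) and MXD1 (-0.90) were lower, while MXI1 of the same family was higher (0.77). MYCN was lower by 0.74 in the full comparison and was not called when any 1 of the 4 libraries was left out (adjusted p = 0.0771 to 0.189).

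Genes of the extracellular matrix were mostly higher. Of 25 collagen genes 16 were higher and 2 lower (median 1.09), and of 36 matrix glycoprotein genes 24 were higher and none lower (median 0.77). COL4A1, a chain of basement membrane collagen, was at 47.9 and 62.1 CPM against 546 and 475 CPM (log2 3.22, SE 0.152), and its partner chain COL4A2 rose by 1.73. COL6A3 went from 0.259 and 0.593 CPM, 5 and 12 counts, to 15.1 and 12.8 CPM (log2 5.00, SE 0.288). COL9A1 was lower (-1.67), and COL6A1 (-0.33) lost its call when any 1 library was left out (adjusted p = 0.0696 to 0.154).

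FN1, the gene of fibronectin, was at 561 and 586 CPM against 2831 and 2351 CPM (log2 2.18, SE 0.129, adjusted p = 6.86e-05). The elastic fibre gene ELN was at 28.8 and 32.6 CPM against 109.8 and 129.5 CPM (log2 1.96). THBS1, which activates latent TGF-beta, was at 19.4 and 27.9 CPM against 177 and 230.0 CPM (log2 3.11). Of 39 matrix enzyme and proteoglycan genes, 25 were higher and 4 lower (median 0.83), with the neural proteoglycan NCAN (-1.11) and MMP15 (-0.85) among the lower. The lower count was 2 without control hairpin 2 replicate 1 or without either library of control hairpin 1.

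Receptors for matrix and the contractile cytoskeleton followed. Of 16 integrin genes 11 were higher and none lower (median 0.96), and 1 was lower without control hairpin 2 replicate 1. ITGB3 was at 3.52 and 4.05 CPM against 53.8 and 41.1 CPM (log2 3.64), its partner ITGAV at 66.5 and 70.4 CPM against 256 and 194 CPM (log2 1.72). ITGA5, the fibronectin receptor chain, rose by 1.17. Of 27 contractile genes 25 were higher, and their summed level was 4131 and 4775 CPM against 10337 and 10378 CPM. MYH9, the nonmuscle myosin heavy chain, was at 367 and 414 CPM against 1344 and 1225 CPM (log2 1.72, SE 0.115). The actin crosslinker FLNC rose by 1.78 and CALD1 by 1.64. The lower gene was S100A6 (-0.79).

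Ligands led the higher genes of the TGF-beta family. The pathway list had 18 of 32 higher and 4 lower (median 0.57). GDF6 was at 5.18 and 4.10 CPM against 44.7 and 50.2 CPM (log2 3.36, SE 0.155), INHBA at 5.64 and 7.41 CPM against 57.9 and 49.9 CPM (log2 3.04), and TGFB2 rose by 1.31. The 4 lower genes were all receptors, ACVR2B (-1.22), BMPR1B (-0.84), ACVR2A (-0.49) and ACVR1 (-0.36). ACVR2A and ACVR1 were each not called without control hairpin 1 replicate 1 (adjusted p = 0.126 and 0.168) or control hairpin 2 replicate 2 (adjusted p = 0.113 and 0.273), nor was ACVR1 without control hairpin 1 replicate 2 (adjusted p = 0.0675).

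**Figure D3:**
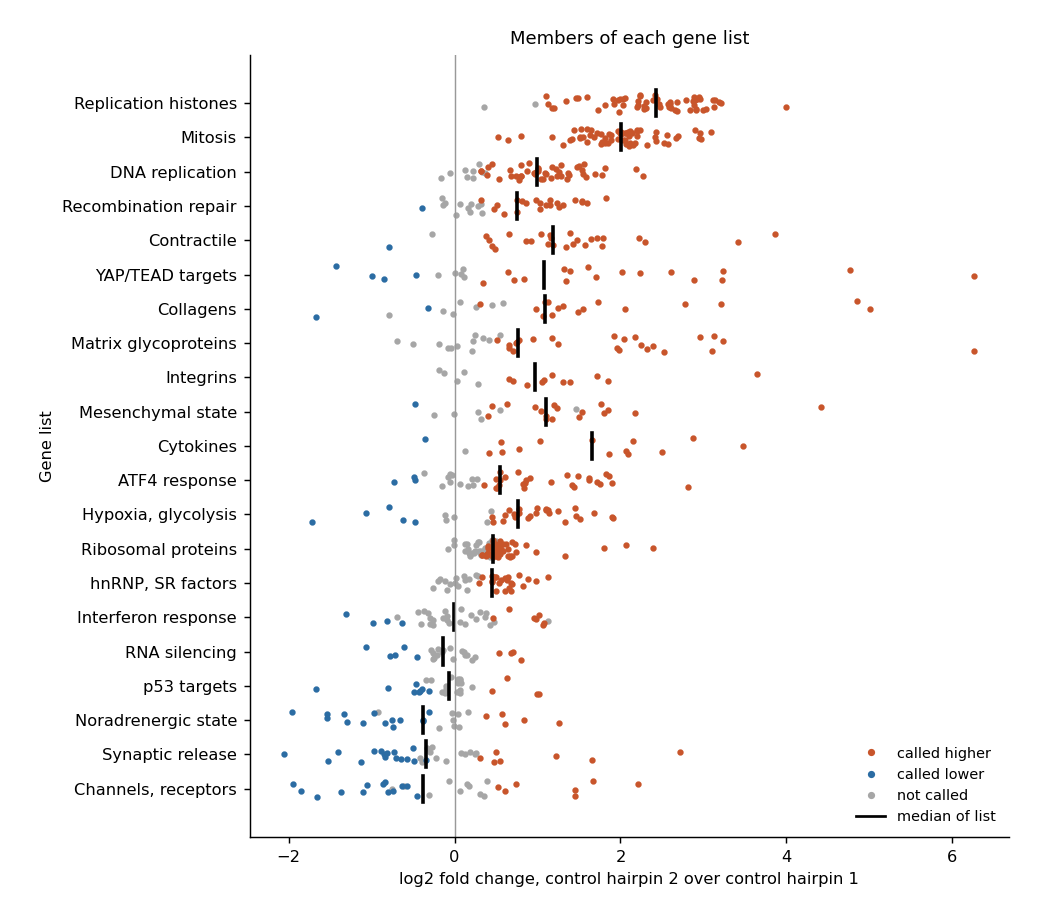
Log2 fold change, control hairpin 2 over control hairpin 1, of each tested member of 21 gene lists. Orange points were called higher, blue points called lower and grey points not called, and the black bar is the list's median, which runs from 2.43 for replication histones to -0.38 for noradrenergic genes.

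Markers of the mesenchymal neuroblastoma state were higher as a group, and those of the noradrenergic state lower in part. Of 24 mesenchymal genes 17 were higher and 1 lower (none without control hairpin 1 replicate 2 or control hairpin 2 replicate 1), with a median of 1.10 and a summed level of 2116 and 2503 CPM against 5464 and 5158 CPM. RUNX1 was at 8.96 and 11.1 CPM against 34.9 and 34.9 CPM (log2 1.80), FOSL2 rose by 1.53 and NOTCH2 by 1.10. Of the defining genes, SNAI2 rose by 1.24 and FOSL1 by 0.96. VIM was at 844 and 1125 CPM against 1443 and 1597 CPM (log2 0.63), and was not called without control hairpin 1 replicate 1 (adjusted p = 0.0591). CD44 was at 87.2 and 79.9 CPM against 108 and 95.4 CPM, which did not pass the test (adjusted p = 0.0612), and PRRX1 had no count in any of the 4 libraries.

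Of 27 noradrenergic genes 14 were lower and 5 higher (median -0.38), 3 higher without control hairpin 1 replicate 1, and the summed level was 3518 and 4044 CPM against 2786 and 3029 CPM. CHGA, the granule protein chromogranin A, was at 236 and 243 CPM against 67.6 and 55.2 CPM (log2 -1.96, SE 0.119, adjusted p = 7.5e-05). SLC18A1, the vesicular monoamine transporter, was at 75.2 and 77.4 CPM against 24.2 and 28.3 CPM (log2 -1.54), and the amine oxidase MAOA at 37.8 and 33.3 CPM against 12.5 and 11.9 CPM (log2 -1.54). CHGB was lower too (-1.10).

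Factors that define the noradrenergic state were expressed with both hairpins. PHOX2A was at 169 and 212 CPM against 170.4 and 224 CPM, overlapping. HAND2 was at 586 and 612 CPM against 435 and 484 CPM (log2 -0.38) and GATA3 at 208 and 195 CPM against 156 and 154 CPM (log2 -0.38). Both were called with all 4 libraries, but HAND2 not without control hairpin 1 replicate 2 or without control hairpin 2 replicate 1 (adjusted p = 0.0705 and 0.130). GATA3 was not called without control hairpin 1 replicate 1 (adjusted p = 0.0808) or either library of control hairpin 2 (adjusted p = 0.0582 and 0.0708). TH, the first enzyme of catecholamine synthesis, had 1, 3, 1 and 1 counts in the 4 libraries, so this defining marker was at or near 0. SIX3 (1.26), GCH1 (0.83) and TFAP2B (0.61) went up.

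Markers of other cell types were read beside these groups. Of 16 immune marker genes 4 had no count in any library and 2 were tested, with summed levels of 11 and 10.7 CPM against 19 and 21.6 CPM. CD68, a lysosomal protein also made outside macrophages, was at 6.42 and 6.47 CPM against 16.3 and 18.9 CPM, and CD8A was lower (-1.56). Of 14 glial markers 3 had no count and 3 were tested, with sums of 51.1 and 50.4 CPM against 37.4 and 39.2 CPM. Of 13 endothelial and epithelial markers 2 had no count and 5 were tested, with sums of 12.5 and 17.1 CPM against 85.9 and 136 CPM. Most of that sum was KRT18, a simple epithelial keratin, at 7.14 and 10.4 CPM against 77.8 and 125 CPM (log2 3.53), and KRT8 rose by 1.93 while KRT19 was lower (-2.02). Fibroblast markers, some of which are also in the matrix and mesenchymal lists, were higher in 10 of 10 tested (median 0.96), with sums of 1580.2 and 1619 CPM against 2094 and 2241 CPM. The part of such cells in the matrix and mesenchymal results was not tested.

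Genes of synaptic release and of excitability were lower more often than higher. Of 35 synaptic genes 16 were lower and 7 higher (median -0.35), and of 30 channel and receptor genes 13 were lower and 7 higher (median -0.38). SYT5, a calcium sensor of vesicle fusion, was at 24.9 and 23.7 CPM against 5.85 and 5.85 CPM (log2 -2.05, SE 0.133). RIMS3 (-1.40), PCLO (-1.53) and SYN1 (-1.12), all of the presynaptic terminal, were lower. CHRNA3, the ganglionic nicotinic receptor subunit, was at 540.1 and 499 CPM against 132 and 157 CPM (log2 -1.85, SE 0.119). The opposite change was seen in NRXN3, a synaptic adhesion gene, at 2.07 and 2.62 CPM against 16.2 and 14.9 CPM (log2 2.72). GRIN1 (2.21) and KCNMA1 (1.45) also rose.

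Granins and neuropeptides split. Among 11 tested, 5 were higher and 3 lower. NPY was at 43.5 and 76.9 CPM against 351 and 373 CPM (log2 2.59, SE 0.236), VIP rose by 1.51, SCG5 by 1.29, VGF by 1.27 and NMU by 2.09. SCG2 was at 441 and 269 CPM against 162 and 103 CPM (log2 -1.43), SCG3 was lower (-1.31), and CPE also (-0.47).

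Axon growth genes were divided as well, 16 of 39 higher and 10 lower (median 0.22). GAP43, the growth cone protein, was at 14.9 and 17.0 CPM against 42.0 and 41.1 CPM (log2 1.38), and DPYSL2 (1.40), MARCKS (1.63) and INA (1.16) rose with it. The adhesion molecule L1CAM was at 266 and 239 CPM against 97.2 and 91.9 CPM (log2 -1.41), and STMN4 (-1.71), STMN2 (-0.81) and MAPT (-0.99) fell. Of 41 axon guidance genes 12 were higher, 10 lower and 19 not called. SEMA3A, a repulsive ligand, was at 11.5 and 12.5 CPM against 91.8 and 97.2 CPM (log2 2.98, SE 0.112, adjusted p = 2.79e-05), while ROBO2 (-1.36) and EFNB3 (-1.22) were lower.

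Growth factor receptors and ligands included genes of clinical interest in neuroblastoma. ALK, a receptor kinase mutated in some of these tumours, was at 118 and 134 CPM against 45.4 and 54.6 CPM (log2 -1.33, SE 0.123). NGFR was at 22.9 and 20.4 CPM against 7.29 and 6.71 CPM (log2 -1.63) and BDNF at 9.47 and 12.1 CPM against 2.90 and 2.71 CPM (log2 -1.94). FLT1 had 1 and 3 counts against 83 and 107 (log2 5.48, SE 0.402), a fold that rests on few counts in control hairpin 1. Over the list of 35, 15 were higher and 6 lower (median 0.32).

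Among Notch genes, JAG1, a ligand, was at 33.2 and 30.7 CPM against 148 and 131 CPM (log2 2.12), and HES4, a target, rose by 2.22. The list had 9 of 21 higher and 2 lower. RBPJ, the DNA-binding partner of Notch, was one of these (-0.51) and was not called without control hairpin 1 replicate 1 (adjusted p = 0.068), and NOTCH1 was the other (-0.48), not called without control hairpin 1 replicate 2 or without control hairpin 2 replicate 1 (adjusted p = 0.186 and 0.0924). For Wnt genes the counts were 12 of 36 higher and 6 lower, with the ligand WNT5B at 3.42 and 4.50 CPM against 24.8 and 21.7 CPM (log2 2.55) and the receptor FZD5 lower (-1.35).

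Imprinted genes outside the IGF2 and H19 locus did not go down together. PEG10 was at 157 and 175 CPM against 703 and 761 CPM (log2 2.14, SE 0.110) and SNRPN at 11.3 and 10.5 CPM against 35.1 and 38.9 CPM (log2 1.77). In the list of other imprinted genes 7 of 24 were higher and 3 lower (median 0.13), 5 lower without control hairpin 2 replicate 2. In the IGF and imprinted growth list 9 of 21 were higher and 8 lower, and the higher count was 4 without control hairpin 2 replicate 2. INSR, the insulin receptor, was at 80.0 and 68.4 CPM against 28.3 and 28.7 CPM (log2 -1.38), and PHLDA2, which neighbours CDKN1C, rose by 3.15 from 20 and 16 counts to 98 and 229.

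Genes that a cell may engage against a hairpin or its vector were read next. Of 36 interferon response genes 7 were higher, 4 lower and 25 not called (median 0.00), and 7 were lower without control hairpin 1 replicate 2. EIF2AK2, the double-stranded RNA kinase, was at 35.4 and 37.8 CPM against 57.4 and 57.8 CPM (log2 0.65). OAS1, a double-stranded RNA sensor, was at 7.61 and 9.68 CPM against 3.43 and 3.57 CPM (log2 -1.30), and MAVS, the adaptor of RNA sensing, was lower (-0.63). The interferon-induced genes IFIT1 and IFIT3 had 4 to 8 counts in each library and were not tested.

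RNA silencing genes were also mixed, with 4 of 25 higher, 5 lower and 16 not called (median -0.15). DICER1, which cuts hairpins, was at 96.7 and 90.5 CPM against 154 and 147 CPM (log2 0.69, SE 0.0941, adjusted p = 0.00122), and CNOT7 (0.70), GEMIN4 (0.80) and TNRC6A (0.53) were the other higher genes. DCP2, the decapping enzyme, was at 126 and 131 CPM against 61.6 and 60.8 CPM (log2 -1.07, SE 0.0922). TNRC6C (-0.72), XRN1 (-0.78) and MOV10 (-0.61) were lower too, as was DCP1A (-0.45), which was not called without control hairpin 1 replicate 1 (adjusted p = 0.0798). AGO2, the Argonaute that cleaves targets, was at 203 and 199.5 CPM against 214 and 219.6 CPM and was not called (adjusted p = 0.355).

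Cytokine and NF-kappaB target genes were few but mostly higher, 13 of 15 with 1 lower (median 1.66). The sums were 209 and 232 CPM against 414 and 438 CPM. BIRC3 rose by 2.88, CXCL12 went from 6.89 and 5.83 CPM to 44.6 and 27.7 CPM (log2 2.5), ICAM1 rose by 1.86 and LIF by 1.66. CSF1 was lower (-0.36) and lost its call when any 1 library was left out (adjusted p = 0.0793 to 0.0884). Immediate early genes had 20 of 31 higher and 5 lower, and 13 higher without control hairpin 1 replicate 1.

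The amino acid response governed by ATF4 had 27 of 41 genes higher and 3 lower (median 0.55). GARS, a tRNA synthetase, was at 46.1 and 44.0 CPM against 133 and 144 CPM (log2 1.62, SE 0.0989), and the mitochondrial one-carbon enzymes SHMT2 and MTHFD2 rose by 1.86 and 1.62. ATF4 transcript was at 69.3 and 69.1 CPM against 84.0 and 77.0 CPM, not called (adjusted p = 0.102). DDIT3 was lower (-0.47) only in the full comparison (adjusted p = 0.0798 to 0.157 with 1 library left out). In the endoplasmic reticulum stress list 10 of 24 were higher and 2 lower, with HSPA5, its main chaperone, at 234 and 281 CPM against 407 and 434 CPM (log2 0.71) and SEL1L lower (-1.48).

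Hypoxia and glycolysis genes were higher in 26 of 36 and lower in 5 (median 0.76). PFKP, a glycolytic kinase, was at 50.9 and 54.2 CPM against 149 and 151 CPM (log2 1.52, SE 0.0945), and ERO1A rose by 1.91. EPAS1, the hypoxia factor HIF-2 alpha, was at 225 and 195 CPM against 60.9 and 66.7 CPM (log2 -1.72), while HIF1A rose by 1.10. VEGFA (-0.79) was lower. Cholesterol and lipid synthesis had 18 of 33 higher and 3 lower (median 0.39), with 1 lower whichever library was left out, and SCD, a fatty acid desaturase, rose by 1.89.

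Genes of protein synthesis and respiration moved by small amounts that depended on single libraries. Of 79 ribosomal protein genes 47 were higher and none lower (median 0.46), but 12 were higher without control hairpin 1 replicate 1 and 17 without control hairpin 2 replicate 2. Their summed level was 22919 and 29142 CPM against 32701 and 40093 CPM, and replicate 2 of control hairpin 1 stood near replicate 1 of control hairpin 2. RPL15 stood apart at 111 and 141 CPM against 621 and 698 CPM (log2 2.39, SE 0.140), and RPL34 rose by 2.06. Ribosomal protein genes have many processed copies, and reads could be shared among them. For the respiratory chain the count was 30 of 74 higher and 3 lower, with 16 and 18 higher without the same libraries, and lower in 1 without control hairpin 1 replicate 2 and in none without control hairpin 2 replicate 2. COX4I1 was at 20.2 and 23.3 CPM against 111 and 129 CPM (log2 2.46). For the proteasome it was 10 of 31 higher and 1 lower, with 1 and 4 higher without them.

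Splicing factor genes were higher in 23 of 38 and lower in none (median 0.45), led by SRSF7 (1.12) and HNRNPD (0.98). Chaperones were higher in 16 of 30 and lower in none, with 9 higher without control hairpin 1 replicate 1 and 1 lower without control hairpin 2 replicate 2. HSPB8, a small heat shock protein, was at 4.09 and 4.35 CPM against 26.5 and 22.4 CPM (log2 2.53). Autophagy and lysosome genes were lower in 11 of 34 and higher in 6, and the lower count was 5 without control hairpin 1 replicate 1 and 4 without control hairpin 2 replicate 2.

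Genes linked to ALS and frontotemporal dementia, the subject of the wider study, were higher in 10 of 35 and lower in 11 (median -0.04). OPTN, an autophagy receptor, was at 42.9 and 37.3 CPM against 19.8 and 16.8 CPM (log2 -1.13), and NEK1 was lower (-1.01). These differences arose with no hairpin labelled against any of the genes.

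Repeat subfamilies went mainly one way. Of 956 tested, 283 were lower (29.6%) and 8 higher (0.837%), or 30.4% in either direction, with a median log2 fold change of -0.25. The lower count was 154 without control hairpin 1 replicate 1, 135 without control hairpin 1 replicate 2, 176 without control hairpin 2 replicate 1 and 89 without control hairpin 2 replicate 2, and the higher count was 14 without control hairpin 1 replicate 2. Repeats as a whole held 23.4 and 24.8% of counts with control hairpin 1, against 20.6 and 20.9% under the other hairpin, a difference of -3.32 percentage points with no overlap. With 2 libraries against 2 no permutation test of that share can pass the threshold. LINE elements held 7.57 and 7.82% against 6.29 and 5.75%, and SINE elements 8.94 and 9.14% against 8.28 and 7.98%. LTR elements held 2.56 and 2.89% against 2.41 and 2.81%, which overlapped. Repeat subfamilies of one class share sequence and may share reads, so they are not independent of each other.

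L1, the LINE family that still moves in the human genome, had the most lower subfamilies with all 4 libraries. Of 121 L1 subfamilies 89 were lower and none higher (median -0.38), and 112 had both libraries of control hairpin 2 below both of control hairpin 1. Over all 956 repeat subfamilies tested, 724 lay below in the same way. The youngest subfamily L1HS was at 132 and 129 CPM against 99.6 and 97.2 CPM (log2 -0.41, SE 0.0900), not called without control hairpin 2 replicate 2 (adjusted p = 0.0544). L1P4e was at 14.2 and 13.2 CPM against 6.97 and 6.90 CPM (log2 -0.99). The count of lower L1 subfamilies was 54 without control hairpin 1 replicate 1, 40 without control hairpin 1 replicate 2 and 13 without control hairpin 2 replicate 2, where ERV1 had 27. The direction is that of repeats in general, and no test set L1 against the others.

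Alu, the most abundant SINE family, had no called subfamily among 41 (median -0.07). None passed an unadjusted p of 0.05 or was called by DESeq2, and 1 was higher without control hairpin 2 replicate 2. DNA transposons of the TcMar-Tigger family were lower in 31 of 51 and higher in none (median -0.31), and hAT-Charlie in 13 of 65. Without 1 library in turn these lower counts were 3 to 11 and 2 to 3. Among endogenous retroviruses, ERV1 had 46 of 249 lower and 3 higher, ERVK 15 of 37 lower and none higher (median -0.37), and ERVL-MaLR 23 of 78 lower. Without 1 library in turn the lower counts of these 3 families were 27 to 34, 8 to 11 and 10 to 12. With all 4 libraries 29.6% of all repeat subfamilies were lower, a share that ERV1, ERVL-MaLR and hAT-Charlie did not exceed. HERVK-int, the internal part of the youngest retrovirus group, was at 51.2 and 48.2 CPM against 35.2 and 29.6 CPM (log2 -0.62).

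The subfamily with the clearest fall was the satellite CER, at 106 and 101 CPM against 46.2 and 46.3 CPM (log2 -1.16, SE 0.0945, adjusted p = 0.000157). MER61-int (-0.95), PRIMAX-int (-1.13) and HERVK13-int (-0.83) followed. PABL_B-int, of the ERV1 family, rose from 6.21 and 8.45 CPM to 20.8 and 19.9 CPM (log2 1.47, SE 0.169), and HERV30-int from 3.11 and 4.05 CPM to 8.04 and 10.1 CPM (log2 1.34). SVA_F, a young composite element, was at 61.9 and 81.5 CPM against 93.9 and 113 CPM (log2 0.53), not called without control hairpin 1 replicate 1 or without control hairpin 2 replicate 2 (adjusted p = 0.107 and 0.0649). Genes that restrain such elements went both ways, 13 of 34 higher and 4 lower (median 0.00), with the heterochromatin protein CBX5 at 165 and 200.4 CPM against 454 and 472 CPM (log2 1.34) and SETDB1 lower (-0.63).

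**Figure D4:**
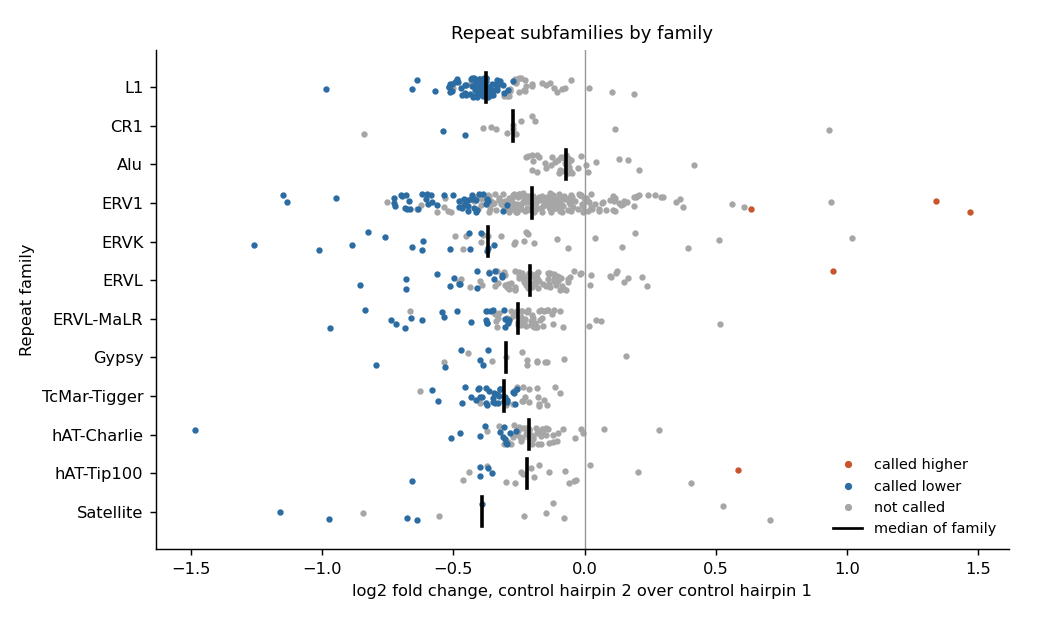
Log2 fold change, control hairpin 2 over control hairpin 1, of each tested subfamily in 12 repeat families. Blue points were called lower, orange points called higher and grey points not called, and black bars are family medians, which lie below 0 in every family shown and nearest to it for Alu (-0.07).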

How the data were processed

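RNA of SH-SY5Y cells was sequenced from rRNA-depleted (Ribo-Zero Gold), strand-specific (NEBNext Ultra II Directional) libraries, per the labels' protocols. Per the submitters' processing notes, the authors used bcl2fastq, STAR 2.5.2b and build hg19. The deposited values were raw counts, whole numbers per gene symbol and per repeat subfamily, per the file headers. Not given in the sources used here are the counting tool, annotation, strand setting and handling of multiply matching reads, so overlapping, antisense, near-identical and repeat features may share reads.

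The 4 control libraries were fitted in R 4.3.3 with edgeR 4.0.16 (filterByExpr with minimum count 10 and minimum total 15, TMM scaling, quasi-likelihood test, Benjamini-Hochberg over all 16636 features, adjusted p below 0.05), with 2 residual and 5.75 prior degrees of freedom and a BCV (biological coefficient of variation) of 10.3%. Dividing the absolute log2 fold change by the root of F gave the standard error. CPM are counts per 1000000 after TMM scaling. DESeq2 1.42.0, other scalings, no filter, genes alone, all 6 libraries, a test against 1.5-fold, the replicate number as a block and leaving out each library were alternatives. In 5 simulations of this comparison, with 200 changed features each among 16575 to 16593 tested, 49.6% of 1.5-fold and 93.4% of 2-fold changes were recovered, and 2.66% of calls were of unchanged features. Changes were placed only in features with mean counts well above the filter, and the simulated spread depended on level alone. Far fewer features changed there than were called in the data, so these rates may not hold for all features tested. Replicates differed by more than counting error (chi-square per degree of freedom 20.4 and 17.4).

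The comparison and the gene lists were chosen with earlier results of these data known. The rule for named genes took TARDBP, the 12 largest rises and falls of called genes that averaged a log2 CPM of 3 or more and did not overlap between hairpins (leaving out uncharacterised, antisense and small RNA symbols), up to 4 called members of each list per direction with the lowest p (all where 5 or fewer), defining members of a list, and the 5 repeat subfamilies with the lowest p per direction. KIF11, IFIT1, IFIT3, AGO2 and the genes of the closing observations were chosen after their values were seen. Mitochondrially encoded genes were not analysed here, and some genes that the rule took are not reported here. Promoters come from RefSeq (GRCh38.p14), not the authors' build, and a match is only a match of letters. Promoters were found for 20 of 26 YAP and TEAD targets, fewer than 80%, so that share is void. They were also found for fewer than 80% of all tested genes, so the shares given for those are a rough guide only.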

Additional observations from a re-analysis of the deposited data

How the results depend on the processing

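Of 4719 recalculated values for the 364 genes and subfamilies that the naming rule and the later choices took, 4431 kept their direction and side of the threshold, 284 lost the call, 4 gained it and none reversed. Total calls were 5163 to 6734 with 1 library left out and 5805 with DESeq2. In a test against a 1.5-fold change, 2108 features were called, with 1481 genes higher and 618 lower, 3 repeat subfamilies higher, 6 lower and 1 L1 subfamily lower. With 1 library left out, genes higher numbered 2963 to 3731, genes lower 2040 to 2854, repeat subfamilies higher 6 to 14 and lower 89 to 176, L1 subfamilies lower 13 to 77, and the repeat share differed by -4.02 to -2.61 percentage points. DESeq2 called 188 repeat subfamilies lower. The cause of these moves was not tested, and the smaller number of libraries was not told apart from which library was left out. Other scalings moved the median of all genes to between -0.03 and 0.03. The replicate numbers pair the samples only by number. Across features, the deviations of the replicate 1 libraries from their hairpin means had a correlation of 0.27. With 2 libraries a hairpin, those of replicate 2 mirror them and add nothing. With that number as a replicate block, 10369 features were called, with 5272 genes higher, 4539 lower, 23 repeat subfamilies higher and 535 lower, and TARDBP, CD44 and ATF4 were among those that gained the call (adjusted p = 0.0210, 0.000279 and 0.00752). With 2 libraries a hairpin, small differences remain below what these depths and replicates could show.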

Other observations

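A few genes were present with one control hairpin and nearly absent with the other. The rule, set after values were seen, asked for at most 3 counts over the libraries of one hairpin and at least 30 in each library of the other, and 7 genes met it. CRYAB, a small heat shock protein and lens crystallin, had no count with control hairpin 1 and 77 and 71 counts with control hairpin 2, at least 49.2-fold higher at a floor of 3 counts over the group. GBX2, a homeobox factor, had none against 40 and 44, at least 27.9-fold higher at the same floor. IER3, an early response gene, had 1 and 1 counts against 61 and 79, ODAM 1 and 2 against 95 and 86, and PROM1, the surface protein CD133, 3 and 0 against 31 and 36. In the other direction, TRIM29 had 184 and 199 counts with control hairpin 1, against 0 and 1 under the other, and SLC24A2 had 52 and 40 against 0 and 1.

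Some gene families were also counted, from lists drawn up after values were seen, beside 25% of all genes higher and 19.9% lower. Numbered ZNF genes, most of which encode zinc finger DNA-binding proteins, were lower in 172 of 497 tested and higher in 45, with a median log2 fold change of -0.29. The lower count was 109 without control hairpin 1 replicate 1 and 108 without control hairpin 2 replicate 2. ZNF805 was at 62.8 and 60.6 CPM against 26.6 and 28.0 CPM. Clustered protocadherins, adhesion proteins that neurons use in combinations, were lower in 31 of 52 and higher in 2 (median -0.68), with 19 to 23 lower when 1 library was left out and 17 lower by DESeq2. PCDHB14 was at 33.3 and 34.0 CPM against 15.9 and 14.3 CPM (log2 -1.15), and PCDHGB6 (-1.42) and PCDHGA11 (-1.23) were lower too. PCDHAC2 (0.55) was higher, and PCDHB4 (0.40) was higher only in part of the alternatives (adjusted p = 0.0918 to 0.189 with 1 library left out). Clustered protocadherins share exons and sequence, so their counts may share reads. Small nucleolar RNA genes were tested in 169 of 523 cases, and 33 were higher, a smaller share than over all genes, and 1 lower (median 0.52). The higher count was 14 without control hairpin 1 replicate 1, 9 without control hairpin 2 replicate 2 and 10 by DESeq2.

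Fold change also varied with the length of the gene. A span in RefSeq was found for 14676 of 15680 genes tested (93.6%). Cut into sixths by span, the shortest genes (48 to 6421 bases) had a median log2 fold change of 0.14, with 24.5% higher and 11.4% lower. The longest sixth (111843 to 2473620 bases) had a median of -0.07, with 24.8% higher and 28.5% lower, and the medians between fell in order of span (0.10, 0.04, 0.00 and -0.07). The part of gene length in the lists above was not tested.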
